A study of Drosophila melanogaster with 4 samples.

Results

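The tg1 line was compared with the CAG line of Drosophila melanogaster at the pharate adult stage, by the difference of log2(FPKM + 1) at each locus, tg1 minus CAG. FPKM, fragments is a level in which sequenced fragments are scaled to gene length and to the size of the library. Both libraries belong to a set of 4, made from the lines LU.10580.tg1, LU.10580.tg2, LU.10580hom and LU.10580/CAG, here called tg1, tg2, hom and CAG. Each line had 1 library of total RNA depleted of ribosomal RNA and read from both ends on an Illumina HiSeq 2000. The labels explain neither the line names nor the alleles or transgenes behind them, and leave out the sex of the animals, their exact age and how many were pooled. The column of the CAG library is headed het. All 4 lines were grown on cornmeal with yeast at 24 °C, and no other treatment is named.

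The comparison takes loci that carry a single gene name and average 1 FPKM or more across the 4 libraries, which holds for 10051 of 13866 loci. A locus is called higher or lower where the difference is at least 1 in size, which is 2-fold on FPKM + 1. A locus high in tg1 or CAG alone can pass the filter of 1 FPKM through that library, and can then be called in 1 direction only. With 1 library a line there is no replicate check. Every value below is a size in these libraries, no test could be run, and a difference between the lines cannot be told apart from one between animals, ages, sexes or library preparations. In RNA from whole animals, fewer cells of a type and less RNA per cell cannot be told apart.

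A pharate adult is a fly whose adult body is complete but still enclosed in the pupal case. The epidermis has laid down the adult cuticle, which is built of chitin and cuticle proteins and hardened by tanning enzymes, and Osiris genes, which encode membrane proteins found in insects, act in cells that secrete cuticle. In males the testes hold developing sperm, while the accessory glands, ejaculatory duct and ejaculatory bulb make the seminal fluid proteins that later change the behaviour and physiology of mated females. The fat body makes the immune peptides that are secreted into the blood and, in the larva, the serum storage proteins used up during metamorphosis.

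Called loci numbered 104 higher in tg1, 1.03% of the tested loci, and 201 lower, 2.00%. These shares are the background for each count of called list members given below. Protein-coding loci with no value of 0 in any library numbered 9632, of which 78 (0.810%) were called higher in tg1 and 154 (1.60%) lower. Most loci differed little: 8623 of the protein-coding loci, 89.5%, differed by less than 0.5, and the median difference was −0.03. The median size of the difference among the protein-coding loci was 0.161, which was the lowest of the 6 pairs of lines, the others lying between 0.180 and 0.251. Both directions together gave 232 protein-coding calls, 2.41%, and 305 over all tested loci, 3.03%. The same rule called 1.74% between tg1 and tg2, 2.53% between tg1 and hom, 3.01% between tg2 and CAG, 4.15% between hom and CAG and 4.75% between tg2 and hom, pairs that share libraries. The share of loci that were called was largest at levels of 1 to 3 FPKM, 4.15% of 1350. It was 2.47% of 3040 at 3 to 10 FPKM, and from 10 FPKM upwards the shares lay between 1.75% and 2.18%. By chromosome arm the share called was 3.21% on 2R, 2.88% on 3L, 2.38% on 3R, 1.97% on 2L and 1.54% on X.

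**Figure D1:**
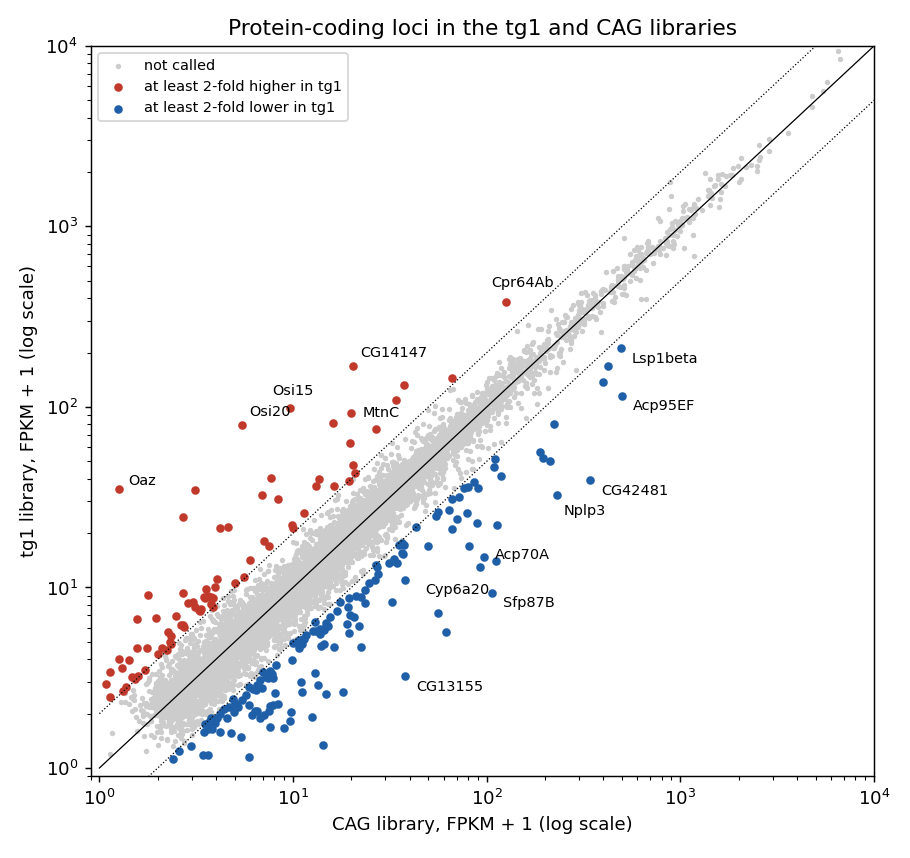
Level of each protein-coding locus with no value of 0 in the tg1 library (vertical axis) and the CAG library (horizontal axis), as FPKM + 1 on log scales, 1 point a locus. The solid line marks equal levels and the dotted lines a 2-fold difference; 78 loci lie above the upper dotted line and 154 below the lower one.

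The plot of both libraries shows loci called lower in tg1 at low and high levels in CAG, among them seminal fluid genes, and a smaller set called higher, led by Oaz and the Osiris genes. The loci just inside the call had differences of 1.003 (CG12506) and −1.004 (CG15882), and the nearest outside it were CG31864 at 0.9997 and CG30424 at 0.999.

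Seminal fluid genes were called lower more often than the tested loci as a whole. The list of seminal fluid genes held 57 loci, of which 53 passed the filter; 30 of them were called lower in tg1, 56.6% against 2.00% of all tested loci, and none higher. The list took in Acp1 and Acp65Aa, adult cuticle protein genes whose symbols resemble those of accessory gland proteins. Without these, 51 loci remained, with a median difference of −1.22, 30 called lower, 49 below 0 and 2 above. Without the filter on low values 32 loci of the list were called lower and 1 higher. CAG was the highest of the 4 libraries at 45 of the 51 loci. Their summed level was 1921 FPKM in tg1, 1598 in tg2 and 1561 in hom, against 4004 in CAG.

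The sex peptide gene Acp70A (chr3L:13294735-13295022 in the dm3 build), whose product lowers the readiness of mated females to remate and raises egg laying, had 13.8 FPKM in tg1, 9.56 in tg2 and 19.1 in hom, against 96.2 in CAG, a difference of −2.72. Its neighbour CG42481 (chr3L:13291895-13292122) had 38.3 FPKM in tg1, 37.7 in tg2 and 43.1 in hom, against 340 in CAG, a difference of −3.12. CAG stood apart from the other libraries at both, and Sfp70A4, the next gene on that side, was called lower as well, with 4.21 FPKM in tg1, 2.90 in tg2 and a listed 0 in hom, against 33.7 in CAG. Dup99B, a peptide of the ejaculatory duct related to sex peptide, had 21.8 FPKM in tg1, 15.9 in tg2 and 11.5 in hom, against 88.6 in CAG.

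The largest level among the accessory gland loci called lower was that of Acp95EF, with 115 FPKM in tg1, 80.5 in tg2 and 77.8 in hom, against 500.0 in CAG. Mst57Db, a male-specific transcript, had 49.4 FPKM in tg1, 32.4 in tg2 and 23.6 in hom, against 212 in CAG. Acp98AB had 11.4 FPKM in tg1, 16.9 in tg2 and a listed 0 in hom, against 159.8 in CAG, and its difference of −3.69 was the largest in the list between non-zero values. CAG was the highest library at each of these, and tg1 lay nearer to tg2 and hom than to CAG.

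Genes named for the ejaculatory bulb, which makes the mating plug, lie side by side on 2R. Peb had 12.7 FPKM in tg1, 3.65 in tg2 and 8.08 in hom, against 112 in CAG, and PebII had 6.19 FPKM in tg1, 2.72 in tg2 and 4.80 in hom, against 55.2 in CAG. Next to them Sfp60F had 21.2 FPKM in tg1, 5.11 in tg2 and 3.81 in hom, against 112 in CAG. These loci form 1 of 10 stretches of at least 3 neighbouring tested loci called in the same direction. PebIII, the most abundant bulb gene, lies elsewhere on 2R and was not called, with 880 FPKM in tg1, 703 in tg2 and 888 in hom, against 959 in CAG.

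Within the list the difference varied with the family of symbols. Loci with Sfp symbols, named as seminal fluid proteins, had a median difference of −1.86, with 16 of 22 called lower. Those with Acp symbols, named as accessory gland proteins, had a median of −0.89, with 5 of 11 called lower, and Acp62F, a protease inhibitor passed to females, stayed short of the call with 62.7 FPKM in tg1, 50.3 in tg2 and 30.6 in hom, against 117 in CAG. Acp36DE, which is needed for sperm storage in the female, was called at −1.04. Loci with a mean of 30 FPKM or more were called at 9 of 17 and those below at 21 of 34. The member furthest above 0 was Est-6, a carboxylesterase of the ejaculatory duct, with 25.8 FPKM in tg1, 17.1 in tg2 and 15.5 in hom, against 18.2 in CAG.

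Some members rest on a value of 0, and such a value may be an estimate that failed. Sfp36F was listed at 0 in tg1, tg2 and hom and had 105 FPKM in CAG. Sfp33A4 was listed at 0 in tg1 and had 8.37 FPKM in tg2, 27.4 in hom and 20.0 in CAG. With every locus listed at 0 left out, 25 loci of the list remained called lower. The list with Acp1 and Acp65Aa kept then had a median of −1.04, against −1.21 before.

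**Figure D2:**
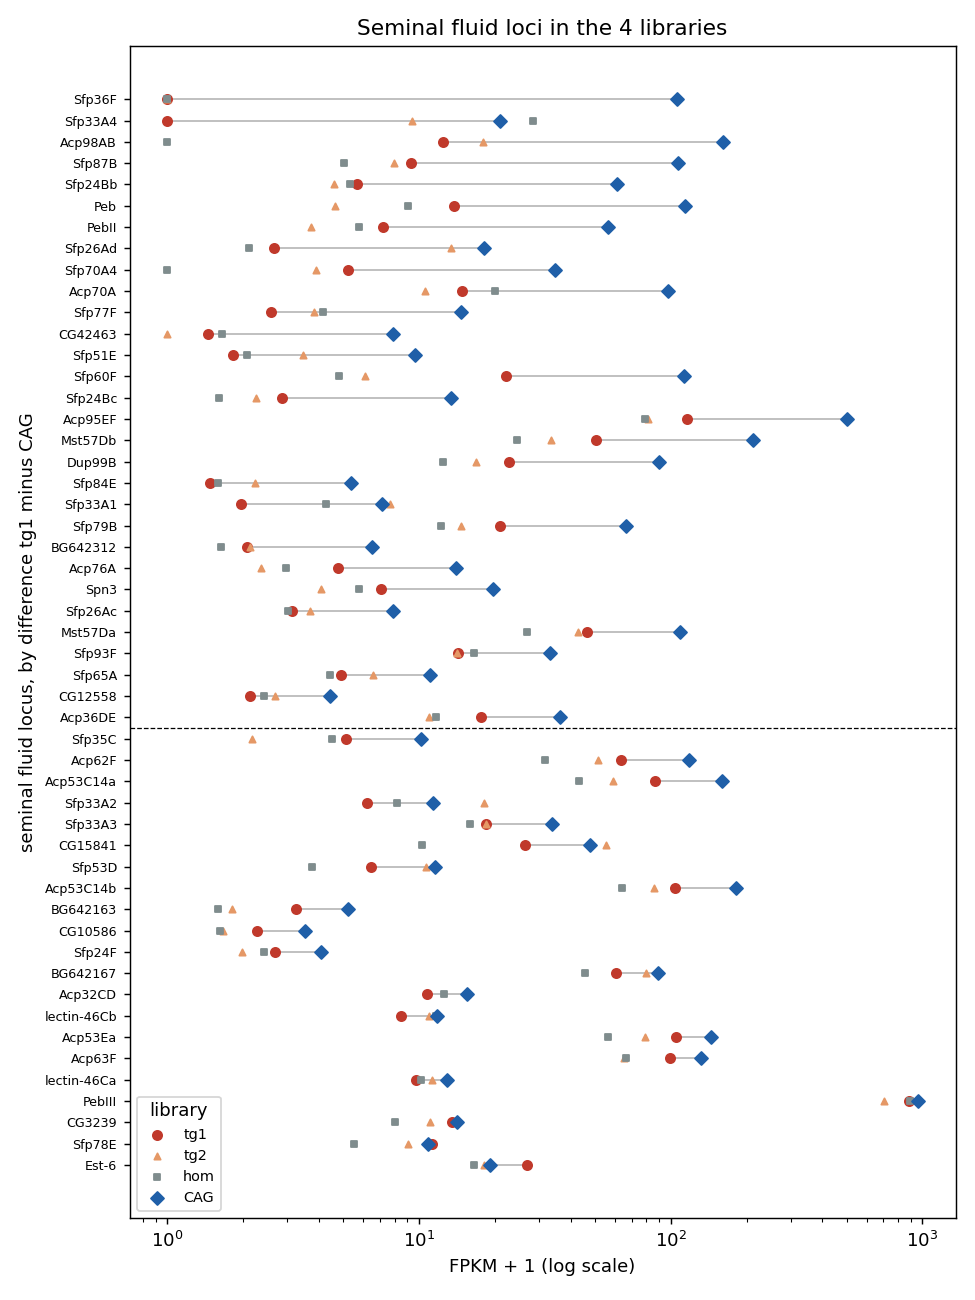
Level of the 51 seminal fluid loci in the 4 libraries, as FPKM + 1 on a log axis, 1 row a locus, ordered by the difference tg1 minus CAG. Grey lines join tg1 and CAG, and the 30 loci above the dashed line were called lower in tg1; CAG is the rightmost point at 45 of the 51.

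In the plot of these loci the gap between tg1 and CAG narrows down the page until PebIII, Sfp78E and Est-6. Some genes of the male tract outside the list were also called lower. Anp, the male-specific antimicrobial peptide andropin of the ejaculatory duct, had 0.824 FPKM in tg1, a listed 0 in tg2 and 1.18 in hom, against 27.2 in CAG. Obp56g, an odorant-binding protein that also occurs in seminal fluid, had 13.05 FPKM in tg1, 7.59 in tg2 and 4.42 in hom, against 110.6 in CAG. Serpins, inhibitors of serine proteases, were called lower at 4 of 14 tested loci, 28.6% against 2.00% of all tested loci, and higher at none. Acp76A and Spn3 of these 4 are on the seminal fluid list and in its count too. Acp76A, a serpin of the accessory gland, had 3.75 FPKM in tg1, 1.37 in tg2 and 1.96 in hom, against 12.99 in CAG. Spn2 (Spn28F) had 1.05 FPKM in tg1, 0.462 in tg2 and 0.223 in hom, against 8.71 in CAG. The most abundant serpin, Spn27A, which restrains the melanization cascade, was not called, with 43.8 FPKM in tg1 and 38.1 in CAG.

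Genes of the testis were close to equal. The testis list, of structural and transcriptional genes of the male germ line, had 35 tested loci. Its single called member was dhd, a thioredoxin known from the ovary and so misplaced in that list, with 3.69 FPKM in tg1, 11.7 in tg2 and 4.67 in hom, against 21.3 in CAG. None of the other 34 was called, their median difference was 0.08, and their summed level was 3893 FPKM in tg1, 4928 in tg2 and 3613 in hom, against 3476 in CAG. Mst87F, a sperm tail gene and the most abundant, had 645 FPKM in tg1 and 628 in CAG. The part that the numbers of males and females in each library have in the seminal fluid values was not tested.

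Of 22 tested germ line and yolk genes, osk alone was called lower and none higher, and 20 were below 0 (18 with each library centred on its median and 19 after scaling by a trimmed mean). Either scaling added 1 call higher, and a pseudocount of 0.1 gave 2 higher and 4 lower. The gap junction gene zpg, which germ cells need and which is not on the list, was called lower, with 1.05 FPKM in tg1, 3.84 in tg2 and 0.872 in hom, against 3.95 in CAG; it was taken after its values were seen. The pole plasm gene osk had 2.21 FPKM in tg1, 7.16 in tg2 and 0.851 in hom, against 6.22 in CAG. The germ line helicase gene vas had 0.980 FPKM in tg1 and 2.77 in CAG, and the translational repressor gene nos had 0.899 in tg1 and 2.77 in CAG, both short of the call. The yolk protein gene Yp3 went the other way, with 8.51 FPKM in tg1, 3.61 in tg2 and 4.83 in hom, against 3.78 in CAG, a difference of 0.99. Of the 11 tested genes of sex determination and dosage compensation none was called, though centring or the trimmed mean gave 1 higher and a pseudocount of 0.1 gave 2. The male-specific RNA roX2, which coats the X chromosome in males, had 364 FPKM in tg1, 508 in tg2 and 677 in hom, against 548 in CAG, with tg1 the lowest.

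On the higher side, leaving out loci listed at 0 in a library, the Osiris genes held the largest differences of any list. The list had 24 loci in the files and 10 passed the filter, of which 5 were called higher, against 1.03% of all tested loci, and none lower, with a median of 1.11. Osi15 (chr3R:2127528-2129375), Osi18, Osi19 and Osi20 (chr3R:2165819-2167146) lie at one end of the gene cluster. Osi20 had 78.0 FPKM in tg1, 63.2 in tg2 and 39.5 in hom, against 4.43 in CAG, a difference of 3.86. Osi15 had 98.0 FPKM in tg1, 85.6 in tg2 and 61.4 in hom, against 8.67 in CAG, a difference of 3.36. At both genes tg1 was the highest library and CAG the lowest.

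The pair between them repeated that order. Osi19 had 33.6 FPKM in tg1, 25.5 in tg2 and 15.3 in hom, against 2.12 in CAG, and Osi18 had 23.4 FPKM in tg1, 20.3 in tg2 and 10.9 in hom, against 1.70 in CAG. Osi17, which lies among them, was under the filter with 0.542 FPKM in tg1 and 0.213 in CAG, and Osi16 was listed at 0 in all 4 libraries. The sum over Osi15, Osi18, Osi19 and Osi20, a set taken after the values were seen, was 233 FPKM in tg1, 195 in tg2 and 127 in hom, against 16.9 in CAG.

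The rest of the cluster was low and moved less. Osi2 was called, with 7.84 FPKM in tg1, 5.12 in tg2 and 9.97 in hom, against 2.47 in CAG. Osi9 was not, with 7.46 FPKM in tg1, 7.77 in tg2 and 4.86 in hom, against 3.63 in CAG. The 6 tested members other than the 4 at the end had a median of 0.40, and with no filter on low values the median over the whole list was 0. Beyond the cluster SmD2, a spliceosome protein gene, had 19.1 FPKM in tg1 and 17.9 in CAG.

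**Figure D3:**
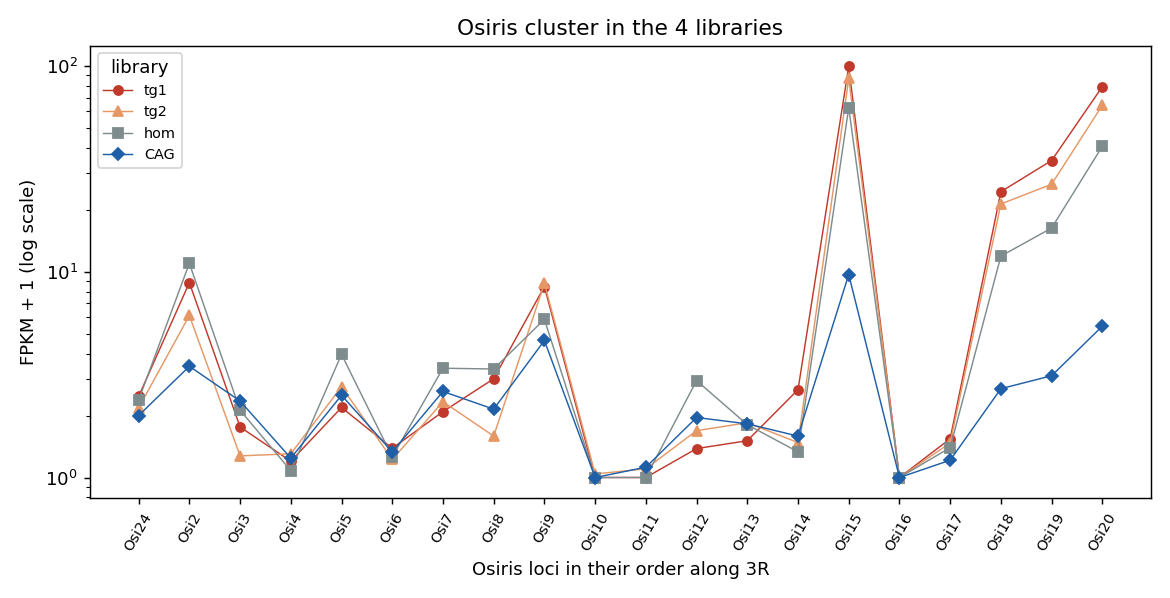
Level of 20 Osiris loci in their order along chromosome arm 3R, as FPKM + 1 on a log axis, with 1 line a library. tg1, tg2 and hom stand above CAG at Osi15, Osi18, Osi19 and Osi20, where their sums are 233, 195 and 127 FPKM against 16.9 in CAG, and the lines run close together at most other loci.

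The plot of the cluster shows the gap opening at Osi15 and again from Osi18 on. Cuticle proteins, the structural partners of chitin, were called in both directions. Of 125 loci in the list 74 passed the filter, with a median of 0.21. Called higher were 8 of them, 10.8% against 1.03% of all tested loci, and lower were 3, 4.05% against 2.00%. Members above 0 numbered 45, or 55 with each library centred on its median and 52 after scaling by a trimmed mean. CAG was the lowest library at 22 of the 74 and the highest at 10.

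Cpr66Cb, a protein with the chitin-binding domain of the Rebers and Riddiford type, had 31.5 FPKM in tg1, 14.02 in tg2 and 23.4 in hom, against 5.89 in CAG, a difference of 2.24. TwdlBeta, of the Tweedle family, had 61.9 FPKM in tg1, 51.8 in tg2 and 74.5 in hom, against 18.6 in CAG. Cpr64Ab, the most abundant of those called, had 383 FPKM in tg1, 395 in tg2 and 492 in hom, against 124 in CAG. CAG was the lowest library at each.

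A stretch of larval cuticle protein genes at chr3L:6126089-6131178 was called higher at low levels. Lcp65Ag2 had 7.71 FPKM in tg1, 2.35 in tg2 and 9.46 in hom, against 2.53 in CAG. Lcp65Ag1 had 3.52 FPKM in tg1 and 1.23 in CAG, and Lcp65Ae had 3.99 in tg1 and 1.31 in CAG. In this stretch tg2 stood with CAG, and Lcp65Ag1 and Lcp65Ag2 are near copies whose reads the authors' counting may split unevenly. The cuticle genes called lower were Cpr67B, Cpr67Fb and Cpr49Ac. Cpr49Ac had 9.65 FPKM in tg1, 8.67 in tg2 and 79.7 in hom, against 23.7 in CAG. The most abundant cuticle gene, Cpr49Ae, had 1665 FPKM in tg1 and 1695 in CAG.

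Genes that make, bind or remodel chitin and matrix were not called at any of 24 tested loci, or 1 higher with a pseudocount of 0.1. Of 21 genes of tanning and pigment, e was called lower, and none higher. It encodes the synthase that joins dopamine to beta-alanine and had 25.8 FPKM in tg1, 43.3 in tg2 and 25.0 in hom, against 62.8 in CAG. Ecdysone response genes, which carry out the moulting hormone's programme, had no call among 19, and ftz-f1, the most abundant, had 108 FPKM in tg1 and 92.8 in CAG.

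**Figure D4:**
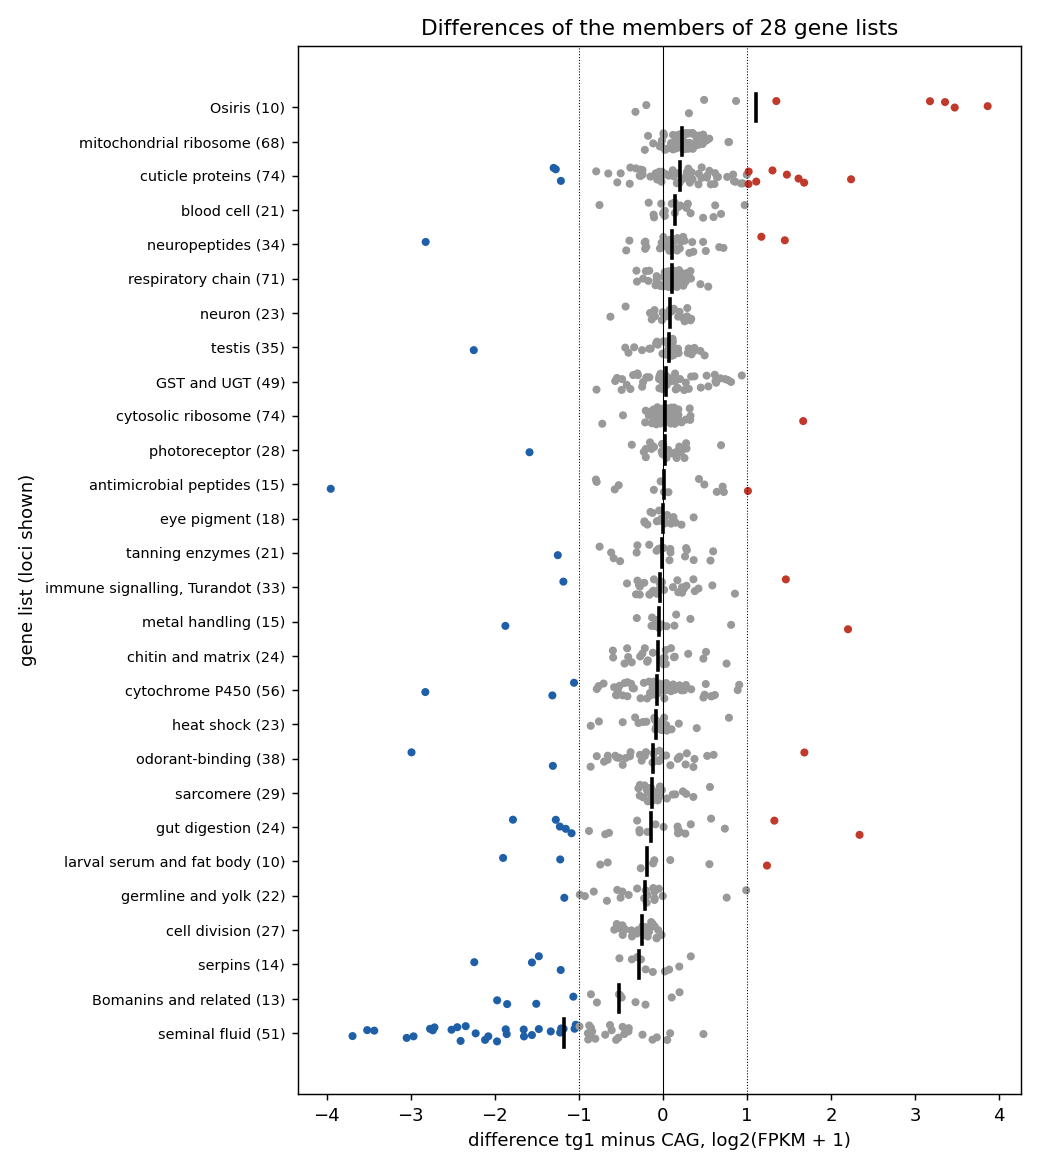
Difference tg1 minus CAG on log2(FPKM + 1) for the tested members of 28 gene lists, leaving out loci listed at 0 in tg1 or CAG, 1 point a locus; the number shown follows each name and the black bars are medians. Red and blue points are loci called higher and lower in tg1; the seminal fluid list lies furthest to the left, where 2 of its 30 called loci are left out for a listed 0, and the Osiris list furthest to the right, with a median of 1.11.

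The plot of the lists has all but 3 medians, those of the seminal fluid, Bomanin and Osiris lists, within 0.5 of 0. Immune peptides were the next list on the lower side. Of 13 tested Bomanins and related peptides, which the Toll pathway induces in fat body, 4 were called lower and none higher. The share called lower was 30.8%, against 2.00% of all tested loci, and the median was −0.52. All 8 tested loci of the Bomanin cluster on 2R were below 0 and had their highest level in CAG. IM3 (BomS3) had 40.6 FPKM in tg1, 30.2 in tg2 and 4.88 in hom, against 117 in CAG, and CG16836 (BomT2) had 5.10 FPKM in tg1, 5.90 in tg2 and 0.874 in hom, against 21.0 in CAG. CG15068 (BomS6), the most abundant of the cluster, differed by −0.21. The immune peptide gene CG16712 (IM33) outside the cluster had 681 FPKM in tg1, 1205 in tg2 and 229 in hom, against 1173 in CAG, short of the call. Where loci listed at 0 in a library were left out, 2 of the list stayed called.

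Antimicrobial peptides had 1 call each way among 15 tested loci. The call lower was Anp, and the call higher was CecA2, a cecropin, with 6.80 FPKM in tg1, 5.46 in tg2 and 6.70 in hom, against 2.87 in CAG. The antifungal peptide gene Drs had 99.4 FPKM in tg1 and 94.9 in CAG. A pseudocount of 0.1 gave 3 antimicrobial calls each way, and a pseudocount of 5 gave none higher. Immune signalling and Turandot genes had 1 call each way among 34. PGRP-SC2, an amidase that breaks down bacterial peptidoglycan in the gut, had 10.2 FPKM in tg1, 3.56 in tg2 and 6.52 in hom, against 3.05 in CAG. TotA, a stress-induced peptide of the blood, had 30.8 FPKM in tg1, 55.3 in tg2 and 93.2 in hom, against 71.3 in CAG, with tg1 the lowest. Of 11 tested lysozymes LysB was called higher, with 7.89 FPKM in tg1 and 2.79 in CAG.

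Larval serum and fat body genes had 11 tested loci, with a median of −0.26. Called higher was 1 locus, 9.09% against 1.03% of all tested loci, and lower were 3, 27.3% against 2.00%. The storage protein gene Lsp1alpha had 51.1 FPKM in tg1, 96.3 in tg2 and 1060 in hom, against 193 in CAG, and Lsp1beta had 210 FPKM in tg1, 273 in tg2 and 1788 in hom, against 491 in CAG. The related Lsp1gamma differed by −0.74 and Lsp2 had 1502 FPKM in tg1 and 1413 in CAG. The call higher was Eig71Eb, an ecdysone-induced gene known from late larval salivary glands, with 5.21 FPKM in tg1, 5.59 in tg2 and 2.605 in hom, against 1.63 in CAG. The remaining call lower was ng4, listed at 0 in tg1 and hom, with 3.51 FPKM in tg2 and 2.74 in CAG. Not every member of the list is therefore a serum or fat body gene. The storage proteins thus ranged from called to flat, and at Lsp1alpha and Lsp1beta tg1 was the lowest library and hom the highest.

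Away from the lists the largest difference between non-zero values was at Oaz (chr2R:10323623-10353376), known as a zinc-finger protein gene. Oaz had 34.2 FPKM in tg1, 0.185 in tg2 and 0.294 in hom, against 0.268 in CAG, a difference of 4.79. Its level passed 1 FPKM only in tg1, and it was 1 of 9 protein-coding called loci at which tg1 stood at least 1 apart from all 3 other libraries. Its neighbours did not follow: phyl, needed for photoreceptor fate, had 2.32 FPKM in tg1 and 1.75 in CAG, and the locus that the files name L had 6.87 FPKM in tg1 and 9.55 in CAG. In the Release 6 gene table Oaz is a synonym of L, and L is also a synonym of another gene nearby, PRAS40, so the name alone does not say which of these the locus called L in the files is.

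The other loci of this kind differed less from the rest. Nplp4, a neuropeptide-like precursor, had 7.33 FPKM in tg1, 1.42 in tg2 and 2.16 in hom, against 2.05 in CAG. A second, short locus of the ribosomal protein gene RpS3A on chromosome 4 had 3.02 FPKM in tg1, 0.809 in tg2 and 0.940 in hom, against 0.264 in CAG. The level of this RpS3A locus also passed 1 FPKM only in tg1, so it passed the filter through tg1. CG2444 was the most abundant of those at which tg1 was lowest, with 10.1 FPKM in tg1, 33.3 in tg2 and 70.2 in hom, against 37.0 in CAG. CAG stood at least 1 apart from all 3 other libraries at 81 of the 232 called loci, tg1 being above it at 27 and below it at 54.

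The place of the other lines at the called loci was uneven. Both tg2 and hom were nearer to tg1 than to CAG at 123 of the 232, and both were nearer to CAG at 26. At 48 loci hom was nearer to tg1 and tg2 nearer to CAG, and at 35 it was the reverse. The 154 loci called lower divided as 82, 15, 39 and 18 in that order, and the 78 called higher as 41, 11, 9 and 17.

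**Figure D5:**
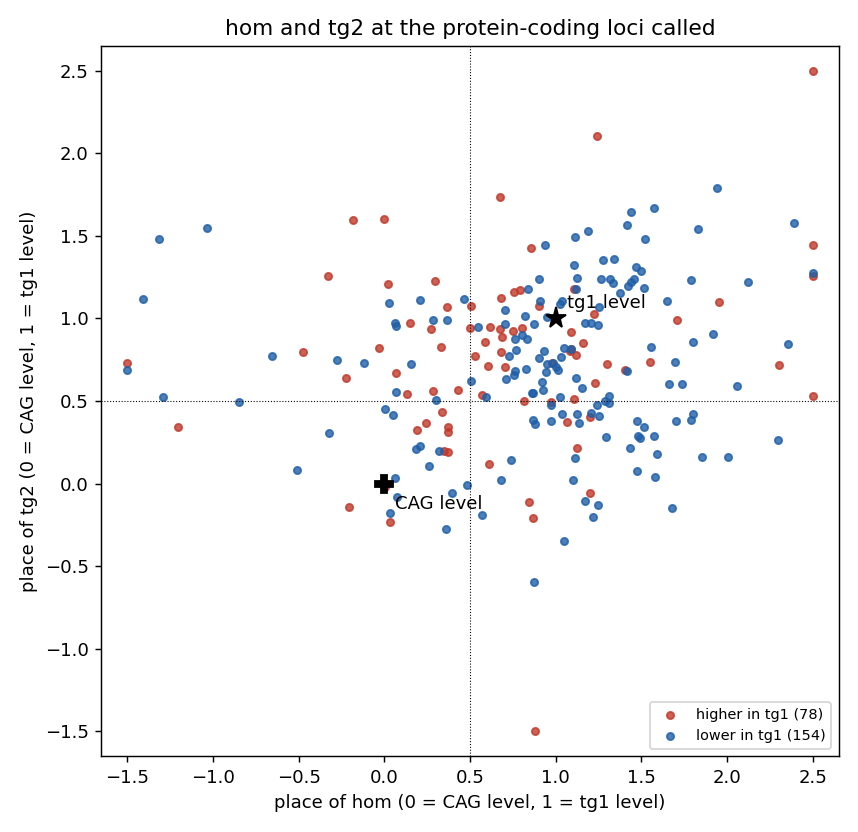
Place of hom (horizontal axis) and tg2 (vertical axis) at the 232 protein-coding called loci on log2(FPKM + 1), scaled so that CAG is 0 (cross) and tg1 is 1 (star), 1 point a locus. The dotted lines at 0.5 divide loci nearer tg1 from loci nearer CAG, and 123 points fall where both lines are nearer tg1, at the upper right; 8 points beyond the axes are drawn at the edge, at −1.5 or 2.5.

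The plot of these places has its densest group around the tg1 mark, with the loci nearer CAG in both lines, 26 in number, in the lower left. A smaller group was low in both tg lines. Cyp6a20, a cytochrome P450 gene whose level has been linked to aggression in males, had 11.98 FPKM in tg1, 13.2 in tg2 and 79.1 in hom, against 91.0 in CAG, a difference of −2.83. Oatp58Db, an organic anion transporter, had 0.914 FPKM in tg1, 1.01 in tg2 and 10.1 in hom, against 11.5 in CAG. The copper importer gene Ctr1B had 1.06 FPKM in tg1, 1.08 in tg2 and 4.20 in hom, against 6.54 in CAG. CG16898 had 0.658 FPKM in tg1, 0.678 in tg2 and 3.82 in hom, against 7.97 in CAG. At each of these tg1 and tg2 were close together and below hom and CAG.

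Among the 56 tested cytochrome P450 genes 3 were called lower and none higher. A pseudocount of 0.1 called 2 of them higher, and a pseudocount of 5 left 1 called lower. The most abundant, Cyp4g1, which makes the hydrocarbons that waterproof the cuticle, had 1091 FPKM in tg1 and 1102 in CAG. Glutathione transferase and glucuronosyltransferase genes, the next step of detoxification, had no call among 49, or 1 higher with centring or a pseudocount of 0.1. Metal-handling genes had 1 call each way among 15. MtnC, a metallothionein that binds copper, had 91.1 FPKM in tg1, 66.5 in tg2 and 55.4 in hom, against 19.0 in CAG, while the more abundant MtnA had 1325 FPKM in tg1 and 1055 in CAG.

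Several genes without a list were far higher in tg1. CG14147 had 167 FPKM in tg1, 112 in tg2 and 202 in hom, against 19.5 in CAG, a difference of 3.03. CG13048 had 20.3 FPKM in tg1, 17.6 in tg2 and 23.7 in hom, against 3.18 in CAG. CG42397 had 39.2 FPKM in tg1, 24.2 in tg2 and 350.3 in hom, against 6.65 in CAG. CAG was the lowest library at all 3 of these loci. The thioester protein gene TepI (Tep1), whose products mark pathogens for blood cells, had 5.68 FPKM in tg1, 3.47 in tg2 and 9.35 in hom, against 0.556 in CAG. The exchange factor gene sif, which activates Rac and acts at synapses, had 29.9 FPKM in tg1, 40.5 in tg2 and 11.3 in hom, against 7.36 in CAG. CG42637 had 20.7 FPKM in tg1, 31.2 in tg2 and 1.77 in hom, against 3.61 in CAG, so that at sif and CG42637 both tg lines were high.

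Others were far lower. CG13155 had 2.22 FPKM in tg1, 1.49 in tg2 and 3.004 in hom, against 36.8 in CAG, a difference of −3.56. CG4363 had 0.343 FPKM in tg1, 1.32 in tg2 and 0.251 in hom, against 13.3 in CAG. A stretch of genes at chr2L:10639946-10650152 included CG18284, with 0.143 FPKM in tg1, 0.206 in tg2 and 0.410 in hom, against 4.93 in CAG, and CG31872, with 0.682 FPKM in tg1 and 6.62 in CAG. CG18284 and CG31872 exceeded 1 FPKM only in CAG, so they passed the filter through CAG and could only be called lower. Just beyond the stretch CG17098 had 18.9 FPKM in tg1 and 18.3 in CAG. CAG was the highest library at each called locus named here.

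Digestive genes had 2 calls higher among 24, 8.33% against 1.03% of all tested loci, and 5 lower, 20.8% against 2.00%. CG18180, a serine protease of the chymotrypsin type, had 80.2 FPKM in tg1, 122 in tg2 and 1310 in hom, against 15.03 in CAG. Its close relative CG18179, which the files place in the same span, so that reads could be split between the 2 loci, had 4.69 FPKM in tg1 and 1.27 in CAG. The maltase gene LvpH (Mal-A1), which splits sugars in the gut, had 14.3 FPKM in tg1, 8.20 in tg2 and 3.47 in hom, against 36.0 in CAG. A stretch of the same family at chr2R:4352675-4361466 was called lower too, with CG30360 (Mal-A6) at 4.92 FPKM in tg1, 4.37 in tg2 and 10.6 in hom, against 12.8 in CAG. Of 17 glycolytic genes the hexokinase gene Hex-C was called lower, with 14.6 FPKM in tg1 and 35.5 in CAG. Gapdh1, the most abundant of them, had 1927 FPKM in tg1 and 1842 in CAG. Lipid genes had 2 calls higher among 22, the lipase gene Lip1 and the fatty acid synthase gene CG17374 (FASN3), and none lower. A pseudocount of 0.1 gave 4 lipid calls higher and 1 lower, and a pseudocount of 5 gave none higher.

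Neuropeptide and odorant-binding protein genes had calls that were few in number, at shares above those of all tested loci. Nplp3, a neuropeptide-like precursor, had 31.6 FPKM in tg1, 103 in tg2 and 18.9 in hom, against 229 in CAG. It was the only one of 34 neuropeptide genes called lower, 2.94% against 2.00% of all tested loci. Nplp4 and Ilp3 were called higher, 5.88% of the list against 1.03% of all tested loci. The insulin-like peptide gene Ilp3 had 6.41 FPKM in tg1, 7.44 in tg2 and 5.08 in hom, against 2.29 in CAG. Odorant-binding protein genes had 1 call higher among 38, 2.63% against 1.03%, and 2 lower, 5.26% against 2.00%. Obp56a had 109 FPKM in tg1, 88.1 in tg2 and 32.0 in hom, against 33.2 in CAG, and Os-E (Obp83b), a binding protein of the antenna, had 4.85 FPKM in tg1, 13.2 in tg2 and 6.80 in hom, against 13.5 in CAG. Odorant, taste and ionotropic receptors passed the filter at 18 of 169 loci and had no call, or 1 higher with a pseudocount of 0.1.

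In the eye, Rh5, the blue-sensitive rhodopsin of inner photoreceptors, was called lower, with 5.89 FPKM in tg1, 16.3 in tg2 and 1.28 in hom, against 19.7 in CAG. It was the only one of 28 photoreceptor genes called, and ninaE, the rhodopsin of the outer photoreceptors, had 826 FPKM in tg1 and 919 in CAG. A pseudocount of 0.1 called 1 photoreceptor gene higher. Eye pigment genes had no call among 18. Of 24 neuronal genes nAcRalpha-7E, an acetylcholine receptor subunit gene, alone was called, with 2.08 FPKM in tg1 and a listed 0 in CAG. Of 30 sarcomere genes bt alone was called, with 496 FPKM in tg1 and 504 in tg2 and a listed 0 in hom and CAG. The flight muscle actin gene Act88F had 6336 FPKM in tg1, 6415 in tg2 and 5162 in hom, against 5719 in CAG.

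The machinery common to all cells had nearly no calls. None was called among 68 mitochondrial ribosomal protein genes, 71 respiratory chain genes, 42 proteasome genes or 27 cell division genes, and the 1 call among 74 cytosolic ribosomal protein loci was the short RpS3A locus. Small differences in 1 direction ran through some of these lists. Mitochondrial ribosomal genes had a median of 0.23 with 61 of 68 above 0 (65 centred and 64 trimmed), and respiratory genes a median of 0.10 with 57 of 71 above 0 (61 centred and 60 trimmed). Cell division genes had a median of −0.24 with all 27 below 0 (25 centred and 26 trimmed), each shift far inside the call. Heat shock genes (23), blood cell genes (21), clock genes (12), glial genes (12), cell death genes (30), Hox genes (6) and genes with many isoforms (14) had no call, except that either scaling called 1 blood cell gene higher. A pseudocount of 0.1 called 1 blood cell gene higher and 1 heat shock gene lower.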

How the data were processed

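Total RNA from pharate adults of 4 lines, 1 library each, was depleted of ribosomal RNA and sequenced in pairs of 48 nt reads, per the labels' protocols. The authors deposited FPKM values per locus, with dm3 coordinates, per the file headers. TopHat, SAMtools, bedtools and Cufflinks are named in the submitters' processing notes, without versions. The gene annotation, and how strand and multiply matching reads were handled, were not given in the sources used here. Starts are counted from 1.

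Differences tg1 minus CAG were taken on log2(FPKM + 1), so the pseudocount of 1 understates the change of low genes. Single-name loci averaging 1 FPKM or more across the 4 libraries were tested, and a difference of at least 1 in size was called. Of 12066 single names 11839 matched the Release 6 gene table, used for names and gene types only. Values of 0 can be failed estimates, and 54 tested loci had one in tg1 or CAG. The total depth is unknown. Steps between the lowest values put the depth of tg1 at 1.12 times that of CAG, the most frequent ratio among 279 low loci, of which 48 lay within 3% of it. Between 9843 (tg1) and 9912 (CAG) of the tested loci reached 1 FPKM, with a median of 11.1 FPKM in tg1 and 11.6 in CAG. The most abundant of all loci held 17.5% of the FPKM sum in tg1 and 30.2% in CAG. The FPKM steps were not turned into reads, and no count test was run.

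The comparison, the 41 gene lists and the rule for naming genes were chosen with earlier results of these data known. Lists were made from symbols, and some held genes of another kind, as given beside the counts of the seminal fluid, testis and larval serum lists. That rule took the 15 largest differences each way among protein-coding loci never listed at 0, up to 3 called members each way and the most abundant member of each list, up to 5 loci each way where tg1 or CAG stood farthest from the rest, and stretches of at least 3 neighbouring called loci; genes short of the call, neighbours and the other loci named were added after their values were seen. Alternatives were pseudocounts of 0.1 and 5, no filter, filters of 5 FPKM or on tg1 and CAG alone, centring, a trimmed mean, leaving out loci listed at 0, all loci, and names found on 1 locus. The procedure was checked on simulated data. Python 3.11.15, pandas and matplotlib were used.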

Additional observations from a re-analysis of the deposited data

How the results depend on the processing

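The counts moved most with the pseudocount and the filter. With a pseudocount of 0.1, loci called numbered 169 higher and 314 lower in tg1, and 136 higher and 258 lower among protein-coding loci never listed at 0; 13 cuticle loci were then called higher. With a pseudocount of 5 the counts were 40 higher and 106 lower, or 23 and 68 among the protein-coding loci, with 3 cuticle loci higher, and the medians fell short of the call at −0.85 for seminal fluid genes and 0.66 for Osiris genes. A filter of 5 FPKM gave 62 higher and 127 lower, or 44 and 90 among the protein-coding loci, and 5 cuticle loci higher. The Osiris median was 0 with no filter and 0.81 with the filter on tg1 and CAG alone, where low members enter. Leaving out loci listed at 0 left 2 Bomanin loci called lower. Of the 107 named loci that were called, 70 stayed called with a pseudocount of 5 and 106 with centring; none changed direction under any alternative that kept it. Centring removes a gap of −0.06 between the medians of tg1 and CAG. Leaving out dhd or the cuticle genes from their lists removed only those loci from the counts. No paired analysis was possible because each line has 1 library, and for the same reason no replicate could be left out. Depth limits the low loci: a difference at 1 to 3 FPKM can rest on few reads, and these hold 56 of the 232 protein-coding calls.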

Other observations

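Loci outside the comparison, with several joined names or with none, were read under the same rule. Of 916 joined loci past the filter 4 were called higher in tg1 and 14 lower, 1.97% in all, against 3.03% of tested single-name loci. Several hold genes like those above. The locus of Mst57Dc and Sfp96F had 40.8 FPKM in tg1, 48.9 in tg2 and 50.7 in hom, against 109 in CAG, and that of CG42465, CG42467 and Sfp24C1 had 9.12 FPKM in tg1, 8.17 in tg2 and 10.1 in hom, against 32.5 in CAG. The joined locus of the antimicrobial peptide genes dro3 and dro4 was called higher, with 136 FPKM in tg1, 266 in tg2 and 1094 in hom, against 39.5 in CAG. Of 722 nameless loci 31 were called higher and 61 lower, 12.7% in all, against the same 3.03%. The nameless locus at chr3L:13292810-13293257, between CG42481 and Acp70A, had 45.9 FPKM in tg1, 33.3 in tg2 and 38.0 in hom, against 265 in CAG.

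Small nucleolar and spliceosomal RNA loci included large differences that rest on values of 0. Of 147 tested loci of these types 14 were called higher and 28 lower, 28.6% in all, against 3.03% of all tested loci. snoRNA:Me28S-A2113 was listed at 0 in tg1, tg2 and hom and had 2745 FPKM in CAG, while snoRNA:Me18S-G1358a had 2149 FPKM in tg1 and was listed at 0 in tg2, hom and CAG. Loci of both types are short, and many of the small nucleolar RNA loci lie inside other genes. FPKM of so short a locus can be unstable. In the span at chr2L:20417061-20423029 several Psi18S snoRNAs share their coordinates with the actin-nucleating complex gene Arc-p34 (Arpc2), which had 23.2 FPKM in tg1 and 22.9 in CAG. There snoRNA:Psi18S-640d had 660.2 FPKM in tg1, 811 in tg2 and 921 in hom, against 1440 in CAG, and snoRNA:Psi18S-525g had 52.8 FPKM in tg1, 76.6 in tg2 and 22.3 in hom, against 15.3 in CAG. More loci of the span were called lower than higher. Besides snoRNA:Psi18S-640d, those called lower were snoRNA:Psi18S-525b, snoRNA:Psi18S-525c, snoRNA:Psi18S-525d, snoRNA:Psi18S-525e, snoRNA:Psi18S-525j, snoRNA:Psi18S-640a and snoRNA:Psi18S-640g. Besides snoRNA:Psi18S-525g, only snoRNA:Psi18S-640c was called higher. Several of these calls rest on a listed 0.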
